A study of Mus musculus with 8 samples.

Results

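Hedgehog signalling was examined in the mouse ovary through 9 genes: the ligands Ihh and Dhh, the receptor Ptch1, the transducer Smo, the decoy receptor Hhip, the co-receptor Gas1 and the transcription factors Gli1, Gli2 and Gli3. All non-control probes whose accession belonged to one of these genes were taken, which gave 13 of the 55681 distinct probes on the array. Each gene had at least 1 probe that could be tested, and 12 of the 13 probes were tested. Total RNA of whole ovaries, flash frozen from cycling mice of 33 weeks, was hybridised to 8 one-colour arrays, 3 from the wildtype and 5 from ovaries with neoplasia. The neoplasia mice are written Pgrcre/+mPgrLsL/+ in the sample labels and Pgrcre/+PgrBLsL/+ in the series text. Both forms join Cre at the progesterone receptor gene Pgr with an LsL allele of the receptor, a transgene behind a stop cassette that Cre removes, so that it is switched on in cells that use the Pgr promoter. The wildtype mice are given no such allele. No control with Cre alone or with the LsL allele alone was analysed here. The stage of the cycle, the share of each ovary taken up by neoplasia and the number of animals behind an array are not given in the labels.

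Hedgehog ligands are secreted proteins that bind Ptch1 on the receiving cell. An unbound Ptch1 holds back Smo, and binding lifts this block, so that Smo acts on the Gli factors in the primary cilium. Gli1, Ptch1 and Hhip are themselves transcribed in response to the pathway in many tissues, which makes their RNA a common readout of it. In the ovary, granulosa cells of growing follicles make Ihh and Dhh, and the theca and interstitial cells around them are the main responding cells. In the uterus, Ihh is a target of the progesterone receptor.

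Values are Agilent processed intensities, a background-subtracted fluorescence in arbitrary units, or log2 of that intensity minus the 75th percentile of the same array. Differences are neoplasia minus wildtype on this log2 scale, with the standard error (SE) of the limma fit and a p-value adjusted by the Benjamini-Hochberg method over all 25216 tested features. A feature was called at an adjusted p below 0.05. The 75th percentile was 460.2 to 515 on the wildtype arrays and 307 to 426 on the neoplasia arrays, so an equal intensity stands for a higher scaled level on a neoplasia array. In this fit 13.4% of all features were called lower in neoplasia and 17.0% higher. With scaling on spike-in controls 15.2% of called features were higher, against 56% with the percentile, so the balance of calls depended on the scaling. The median of all features was 0.14 with the percentile and -0.47 with the spike-ins. It is given for comparison only, and no difference, fold or test was shifted by it. All arrays lay on 1 slide, with neoplasia 1 to 4 in row 1 and neoplasia 5 beside the 3 wildtype arrays in row 2.

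The promoter windows of 4 genes that were lower in every neoplasia array than in every wildtype array are shown first, because these genes fell together in the comparison that follows. Each window is the 250 bases before the RefSeq start of the gene on GRCm38.p6, read 5′ to 3′ on the strand of the gene. Capitals mark GC boxes, the letters GGGCGG on either strand, which are bound by Sp1-type factors.
Ihh, chr1:74951673-74951922, minus strand: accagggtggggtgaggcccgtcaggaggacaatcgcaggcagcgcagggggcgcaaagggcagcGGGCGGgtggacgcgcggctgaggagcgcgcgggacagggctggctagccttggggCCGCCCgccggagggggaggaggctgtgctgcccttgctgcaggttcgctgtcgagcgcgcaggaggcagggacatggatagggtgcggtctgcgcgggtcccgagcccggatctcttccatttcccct
Dhh, chr15:98898541-98898790, minus strand: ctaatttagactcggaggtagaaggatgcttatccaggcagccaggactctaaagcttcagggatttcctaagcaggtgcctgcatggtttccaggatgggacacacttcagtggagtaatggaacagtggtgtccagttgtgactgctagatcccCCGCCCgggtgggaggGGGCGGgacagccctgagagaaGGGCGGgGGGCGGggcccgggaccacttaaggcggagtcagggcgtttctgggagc
Ptch1, chr13:63565736-63565985, minus strand: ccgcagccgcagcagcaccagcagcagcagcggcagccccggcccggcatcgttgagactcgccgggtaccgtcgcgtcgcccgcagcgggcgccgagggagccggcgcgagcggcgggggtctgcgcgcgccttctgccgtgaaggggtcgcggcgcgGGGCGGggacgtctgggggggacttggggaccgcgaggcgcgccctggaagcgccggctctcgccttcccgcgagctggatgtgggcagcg
Hhip, chr8:80058009-80058258, minus strand: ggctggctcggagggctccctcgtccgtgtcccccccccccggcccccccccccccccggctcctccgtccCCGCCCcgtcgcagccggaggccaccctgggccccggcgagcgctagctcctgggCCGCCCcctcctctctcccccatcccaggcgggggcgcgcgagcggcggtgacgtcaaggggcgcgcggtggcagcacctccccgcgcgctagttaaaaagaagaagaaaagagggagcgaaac

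The 4 windows held 2, 4, 1 and 2 GC boxes in the order printed, and their GC content was 72%, 59.6%, 78.4% and 76%. The table of promoter windows held 8 of the 9 genes, without Gli1, and 7 of these 8 windows had a GC box, all but Smo. Of all 32851 windows of this length in the table, 32.74% had one. The Gli-binding letters GACCACCCA, searched on both strands, were in none of the 8 windows and in 0.2253% of all windows. Their core CCACCCA, which lies within the longer motif, was also in none of the 8, against 8.112% of all windows. The progesterone receptor element, made of GNACA and TGTNC with any 3 bases between them, was in none of the 8 and in 0.3866% of all windows. A cyclic AMP response element, TGACGTCA, was in the Hhip window alone, against 1.546% of all windows. These matches describe letters in a short window only.

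Of the 9 Hedgehog genes, 6 were called lower in neoplasia and 0 higher, where 13.4% of all features were lower and 17.0% higher. Both ligands, Ptch1, Hhip, Gli1 and Gli2 fell, of which Hhip passed the filter on dim signals through the wildtype arrays alone. Smo, Gli3 and Gas1 did not pass the test. The median difference over the 9 genes was -3.64, against 0.14 over all features. For 5 of the 6 called genes, all but Gli2, the 5 neoplasia arrays lay below the 3 wildtype arrays, as did 16.0% of all features. In whole-ovary RNA, fewer cells of a type and less RNA per cell cannot be told apart.

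**Figure D1:**
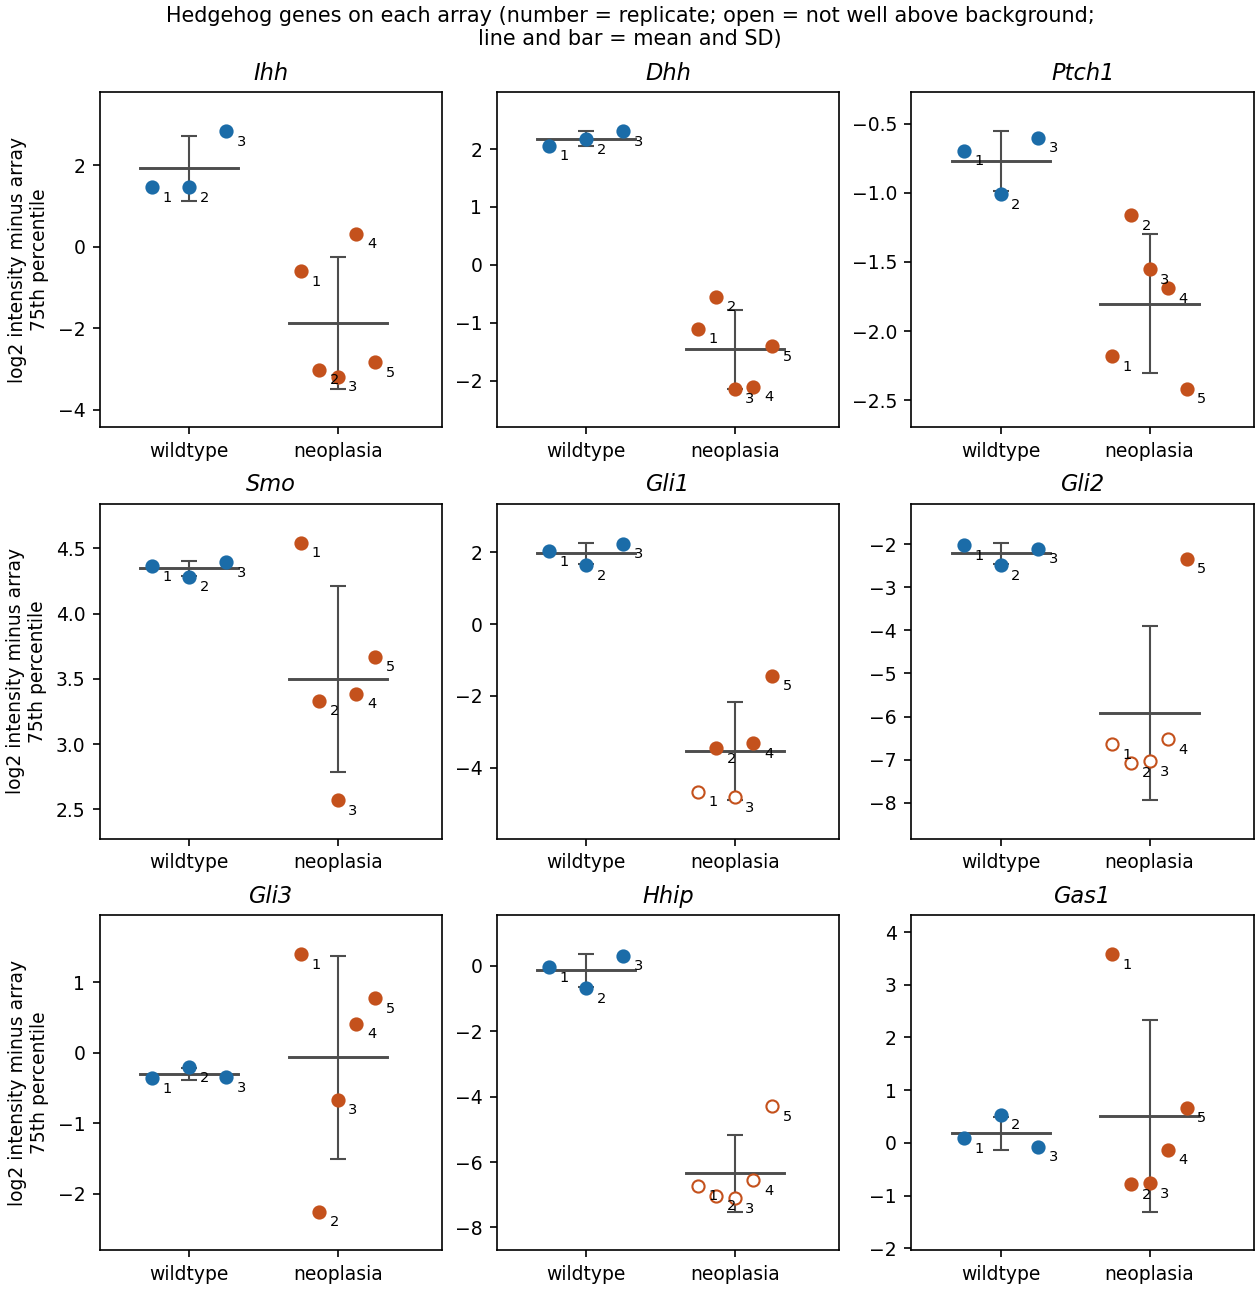
Log2 intensity minus the array's 75th percentile for the 9 Hedgehog genes, with 1 point per array, numbered by replicate, and open points for values not well above background; lines and bars are the mean and SD of 3 wildtype and 5 neoplasia arrays. Ihh, Dhh, Ptch1, Gli1 and Hhip have no neoplasia point at the height of a wildtype point, whereas Gli2 has neoplasia 5 among the wildtype values.

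Ihh, the ligand that progesterone induces in the uterus, was bright in all wildtype ovaries. Its probe (A_55_P2152225, NM_010544) read 1411, 1418 and 3290.1 on wildtype 1 to 3 and 202, 52.3, 39.3, 420.2 and 49.7 on neoplasia 1 to 5. Neoplasia 1 and 4 kept the most signal, neoplasia 2, 3 and 5 lay close together at a lower level, and the groups did not overlap. The scaled log2 mean of the wildtype arrays was 1.92 ± 0.79 (SD, n = 3), and that of the neoplasia arrays was -1.87 ± 1.62 (SD, n = 5). This is a difference of -3.79 ± 0.88 (SE), or 13.8-fold lower, with a limma adjusted p of 0.0162. After normexp background correction it was -2.96. The call was lost when wildtype 1, 2 or 3 was left out, with differences of -4.02, -4.02 and -3.33 and limma adjusted p of 0.0597, 0.0553 and 0.0673.

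Dhh, the ligand best known from Sertoli cells of the testis and made by granulosa cells in the ovary, was the steadier of the ligands. Its probe (A_52_P232637, NM_007857) read 2126, 2322 and 2282 on the wildtype arrays and 143, 291, 82.1, 78.3 and 135 on neoplasia 1 to 5. The 3 wildtype values were nearly equal, every neoplasia was far below them, and neoplasia 2 was the highest of the 5. Dhh fell from a scaled log2 mean of 2.18 ± 0.13 (SD, n = 3) to -1.46 ± 0.68 (SD, n = 5), a difference of -3.64 ± 0.38 (SE), or 12.5-fold lower, with a limma adjusted p of 0.000491. The call held with each array left out in turn. On the scaled level neoplasia 3 was the lowest for both ligands, at -3.20 for Ihh and -2.14 for Dhh. The highest array differed: it was neoplasia 4 for Ihh, at 0.32, and neoplasia 2 for Dhh, at -0.55. For Dhh, neoplasia 4 was close to the lowest, at -2.10. The third ligand gene of the family, Shh, was not well above background on any of the 8 arrays, with intensities of 2.38 to 4.76, and was not tested.

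Ptch1, the receptor and at the same time a feedback target, showed the smallest fall among the called genes. Its probe (A_55_P2107292, NM_008957) read 315, 255 and 303 in wildtype and 67.7, 190.3, 123, 104 and 66.9 in neoplasia 1 to 5. All neoplasias lay below all wildtype arrays, neoplasia 2 nearest to them and neoplasia 1 and 5 farthest away. The scaled log2 means were -0.77 ± 0.22 (SD, n = 3) and -1.80 ± 0.50 (SD, n = 5), a difference of -1.03 ± 0.30 (SE), or 2.04-fold lower, with a limma adjusted p of 0.0358. Leaving out wildtype 1, 2 or 3 gave limma adjusted p of 0.128, 0.0846 and 0.114, and leaving out neoplasia 1, 3 or 4 gave 0.0614, 0.0503 and 0.061, with differences of -1.15 to -0.94 over these 6. Quantile normalization gave -0.90 with a limma adjusted p of 0.0511, and normexp background correction gave -0.60.

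Hhip, a membrane protein that binds Hedgehog ligands and limits their spread, was not well above background on any neoplasia array. Its brighter probe (A_55_P1969276, NM_020259) read 498, 322 and 571 on the wildtype arrays and 2.91, 3.25, 2.62, 3.56 and 18.3 on neoplasia 1 to 5. Neoplasia 5 had the highest of the 5 neoplasia readings, itself not well above background. The scaled mean was at least 25.2-fold lower in neoplasia, where the bound sets each neoplasia array at the higher of its own reading and its lowest signal among probes well above background. The fitted difference was -6.21 ± 0.64 (SE) with a limma adjusted p of 0.000481, from measured log2 means of -0.13 ± 0.50 (SD, n = 3) and -6.34 ± 1.17 (SD, n = 5). The probe passed the filter on dim signals through the wildtype arrays alone, so it had to differ. A dimmer Hhip probe (A_51_P416822) read 31.1, 17.2 and 37.5 in wildtype, well above background on 2 of the 3 arrays, and 2.72 to 4.58 in neoplasia, well above background on none. It was not tested, and its mean was at least 1.54-fold lower in neoplasia.

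Smo, the seven-pass protein that carries the signal past Ptch1, kept a high intensity in both groups. On its brighter probe (A_51_P258766, NM_176996) it read 10506, 10025 and 9655 in wildtype and 7159.5, 4289, 2145, 3518 and 4536 in neoplasia 1 to 5. After scaling, neoplasia 1 stood above the wildtype arrays at 4.54 and the other 4 stood below them. The difference was -0.84 ± 0.39 (SE), with a 95% interval of -1.74 to 0.05 and a limma adjusted p of 0.129. Without neoplasia 1 it was -1.11 with a limma adjusted p of 0.0282, and with quantile normalization it was -1.36 with a limma adjusted p of 0.0261. The other Smo probe (A_55_P2121484) differed by -0.39 ± 0.40 (SE), with an adjusted p of 0.472 in the limma fit over all probes.

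Gas1, a cell-surface co-receptor that presents ligand to Ptch1, set 1 neoplasia apart from the rest. Its brightest probe (A_51_P157083, NM_008086) read 544, 744 and 438 in wildtype and 3684, 247, 211, 307 and 567 in neoplasia 1 to 5. Neoplasia 1 exceeded every other array, and the remaining neoplasias straddled the wildtype values on the scaled level. The mean difference was 0.33 ± 0.94 (SE), with a 95% interval of -1.82 to 2.48 and a limma adjusted p of 0.807. Neoplasia 1 was also the highest array on both other Gas1 probes, at 495 on A_55_P2025562 and 403 on A_55_P2070510, where the remaining neoplasias read 84.0 to 119.7 and 22.7 to 52.7. The wildtype arrays read 104 to 137 and 45.3 to 70.2 on these probes. Their differences were 0.69 ± 0.61 and 0.51 ± 0.92 (SE), with adjusted p of 0.41 and 0.694 in the limma fit over all probes.

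Gli1, the activator whose own transcription is the most widely used readout of the pathway, fell further than any other of the 9 genes that was measured in neoplasia. Its probe (A_55_P2183587, NM_010296) read 2079, 1616 and 2180.5 in wildtype and 12.1, 39.1, 12.7, 33.8 and 131 in neoplasia 1 to 5. Neoplasia 1 and 3 were not well above background, and neoplasia 5 was the highest of the 5, still below every wildtype array. The scaled log2 means were 1.97 ± 0.30 (SD, n = 3) and -3.54 ± 1.36 (SD, n = 5), of which 3 neoplasia arrays were well above background. The difference was -5.51 ± 0.71 (SE), or 45.6-fold lower, with a limma adjusted p of 0.00148. It held with each array left out in turn, and was -3.79 after normexp background correction and -3.41 between neoplasia 5 and the wildtype arrays of slide row 2.

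Gli2, the main activator that acts before Gli1, split the neoplasias. Its probe (A_52_P357829, NM_001081125) read 125, 91.8 and 107 in wildtype and 3.08, 3.17, 2.75, 3.66 and 70.4 in neoplasia 1 to 5. Neoplasia 1 to 4 were not well above background, whereas neoplasia 5 lay within the wildtype range on the scaled level, at -2.34 against -2.49 for wildtype 2. Neoplasia 5 was also the only neoplasia in slide row 2, so this split cannot be told apart from slide row. Gli2 fell by 3.71 ± 1.03 (SE) on the log2 scale, with a limma adjusted p of 0.0299. Without neoplasia 5 the fitted difference was -4.61, but no remaining neoplasia array was well above background, so the probe then passed the filter through the wildtype arrays alone and had to differ. Leaving out wildtype 1, 2 or 3 gave limma adjusted p of 0.109, 0.0892 and 0.0876, and leaving out neoplasia 1, 2, 3 or 4 gave 0.0557, 0.0515, 0.0577 and 0.0627. The size depended on how dim signals were handled: it was -0.78 after normexp background correction and -2.20 with signals raised to the lowest one above background, with limma adjusted p of 0.0394 and 0.0276.

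Gli3, which serves mainly as the repressor of the pathway in the absence of ligand, varied among the neoplasias in both directions. Its probe (A_51_P171288, NM_008130) read 399, 447 and 363 in wildtype and 811, 89.6, 228, 448 and 611 in neoplasia 1 to 5. The scaled log2 SD was 0.08 over the wildtype arrays and 1.43 over the neoplasias, with neoplasia 1, 4 and 5 above the wildtype values and neoplasia 2 and 3 below them. The mean difference was 0.24 ± 0.74 (SE), with a 95% interval of -1.46 to 1.93 and a limma adjusted p of 0.825. It was -0.37 with spike-in scaling.

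**Figure D2:**
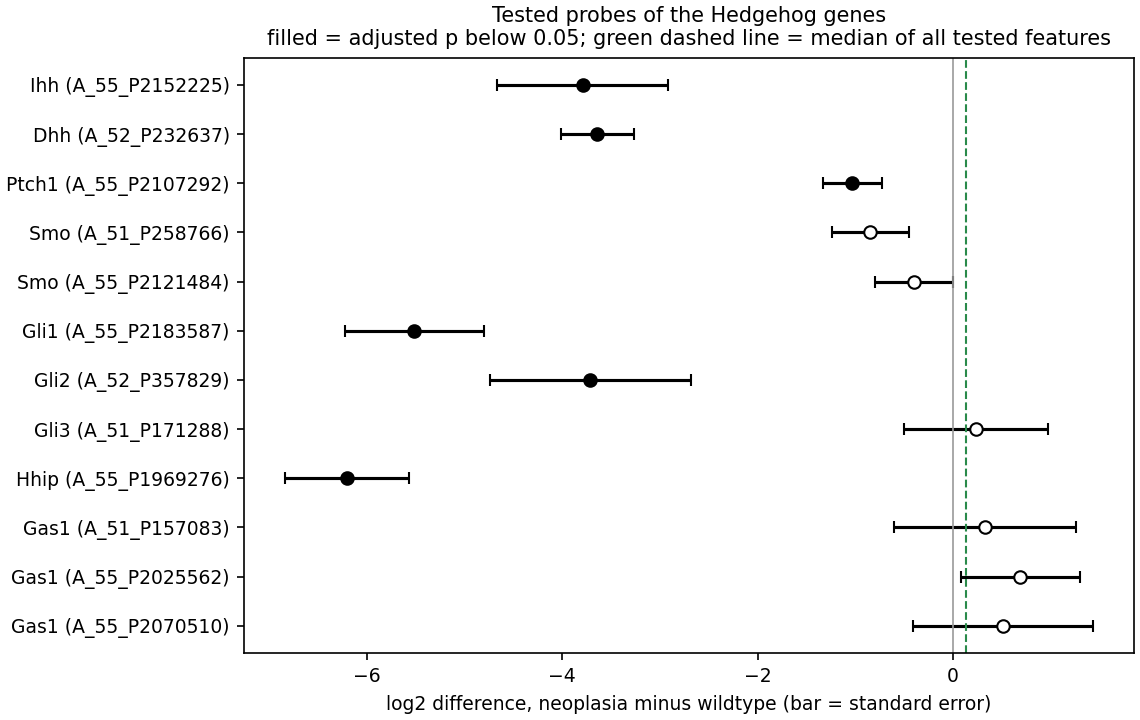
Log2 difference, neoplasia minus wildtype, for each tested probe of the 9 Hedgehog genes, with bars for the SE of the limma fit and a dashed line at the median of all features. Hhip and Gli1 lie farthest below 0, at -6.21 and -5.51, the 3 Gas1 probes lie at 0.33 to 0.69 with wide bars, and Gli3 lies at 0.24.

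The neoplasias were not alike across the 9 genes. Set against the wildtype mean, Ihh ran from -1.60 log2 units in neoplasia 4 to -5.12 in neoplasia 3, and Dhh from -2.73 in neoplasia 2 to -4.32 in neoplasia 3. Ptch1 ran from -0.39 in neoplasia 2 to -1.64 in neoplasia 5, an order unlike that of Gli1, which ran from -3.41 in neoplasia 5 to -6.80 in neoplasia 3. Gli1 was not well above background on neoplasia 1 and 3, so the lower end of its order is not resolved. Neoplasia 5 had the smallest deficit of Gli1 and Gli2 and the largest deficit of Ptch1. Hhip was not well above background on any of the 5, so its readings were not ordered. Gli3 and Gas1 were both above the wildtype mean in neoplasia 1 and 5 and both below it in neoplasia 2 and 3.

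**Figure D3:**
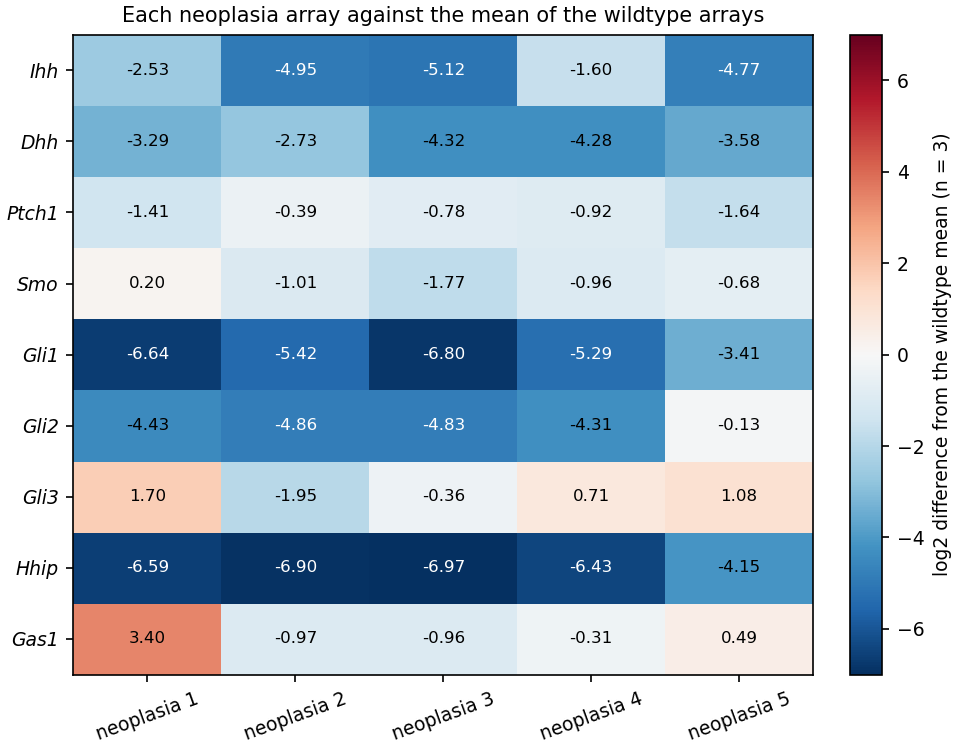
Difference of each of the 5 neoplasia arrays from the mean of the 3 wildtype arrays, in log2 units, for the 9 Hedgehog genes. All 5 neoplasias are below 0 for Ihh, Dhh, Ptch1, Gli1, Gli2 and Hhip, Gli2 on neoplasia 5 is at -0.13, and Gas1 on neoplasia 1 is at 3.40.

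Slide row and group were partly confounded, because row 1 held neoplasias only. Neoplasia 5 was the only neoplasia in row 2, so its differences from the other neoplasias cannot be told apart from slide row. Within row 2, neoplasia 5 differed from the wildtype arrays by -4.77 for Ihh, -3.58 for Dhh, -1.64 for Ptch1, -0.68 for Smo and -3.41 for Gli1. The row 2 differences of Gli2, Gli3, Hhip and Gas1 were -0.13, 1.08, -4.15 and 0.49. A fit with row as a block rests on the same contrast and gives the same differences. It called 3 of the 9 genes lower, Dhh, Gli1 and Hhip, with limma adjusted p of 0.0211, 0.0282 and 0.0029. Of these, Hhip passed the filter on dim signals through the wildtype arrays alone, so it had to differ. The limma adjusted p of Ihh, Ptch1 and Gli2 were 0.0982, 0.0595 and 0.845.

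Marker genes of the cells that send and receive Hedgehog signals moved as well. Their counts stand beside 13.4% lower and 17.0% higher among all features. Of 14 granulosa markers 9 were lower and 0 higher, among them the FSH receptor gene Fshr, the aromatase gene Cyp19a1 and Amh, which were not well above background on any neoplasia array. The granulosa factor Foxl2 differed by 0.43 ± 0.19 (SE, limma adjusted p of 0.113). Summed over the list, the granulosa level, in multiples of the array's 75th percentile, was 243 to 334 on the wildtype arrays and 83.3 to 150.5 on the neoplasia arrays. Of 11 theca and interstitial markers 8 were lower and 0 higher, with summed levels of 487 to 636 against 67.1 to 147. The LH receptor gene Lhcgr was not well above background in any neoplasia, whereas Cyp17a1, the androgen-making enzyme of theca cells, differed by 0.31 ± 0.33 (SE, limma adjusted p of 0.49). Oocyte markers were lower in 12 of 13, with summed levels of 35.2 to 44.8 against 1.62 to 3.95, and Zp1, Zp2, Bmp15, Figla, Nobox, Zar1 and Padi6 were not well above background in any neoplasia. Luteal markers were lower in 7 of 8, and the other, Parm1, was higher by 3.04 ± 0.48 (SE) on the log2 scale with a limma adjusted p of 0.00354. Among the lower calls, 7 of the oocyte, 3 of the granulosa, 2 of the luteal and 1 of the theca markers passed the filter through the wildtype arrays alone, so they had to differ. Lhcgr is counted here in both the luteal and the theca list. Hsd3b1 is also in both of these lists, and Pdgfra and Acta2 are in both the theca and the fibroblast and muscle list. The counts of these lists are therefore not independent. The part of these cell type markers in the Hedgehog differences was not tested.

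Markers of other cells moved differently between the neoplasias. Fibroblast and smooth muscle markers had summed levels of 264 to 551 on the wildtype arrays and of 25.7 to 124 on neoplasia 1 to 4, but 519 on neoplasia 5, the array that kept Gli2. Only Cnn1 of these 11 was called: it fell by 4.75 ± 1.22 (SE) on the log2 scale with a limma adjusted p of 0.0228. Of 10 epithelial markers 2 were higher, 3 lower and 5 not called, with a median of -0.36. The keratin genes Krt8 and Krt18 rose by 4.01 ± 0.78 and 3.52 ± 0.65 (SE) on the log2 scale, with limma adjusted p of 0.00825 and 0.00669, while the adhesion genes Epcam and Cldn7 fell by 3.76 ± 0.96 and 2.67 ± 0.61 (SE), with limma adjusted p of 0.0225 and 0.0152. The list had summed levels of 17.2 to 83.1 in wildtype and 192 to 774 in neoplasia, with the highest value on neoplasia 1, the array with high Gas1. Bright keratin genes make up most of this sum, so it does not stand for the other genes of the list. Krt18, Krt8 and Krt19 read 155906, 43596 and 36858 on neoplasia 1. The untested Muc1 and Pax8 were each well above background on 2 wildtype arrays and 0 neoplasia arrays. Red cell and leukocyte markers were higher in 8 of 11, with summed levels of 46.4 to 59.8 against 488 to 1803. Endothelial markers were higher in 3 of 8. Among all features 17.0% were higher and 13.4% lower. Whether these markers bear on the values of neoplasia 1 and 5 was not tested. Slide row also sets neoplasia 5 apart from neoplasia 1 to 4, and its part cannot be told from these arrays.

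**Figure D4:**
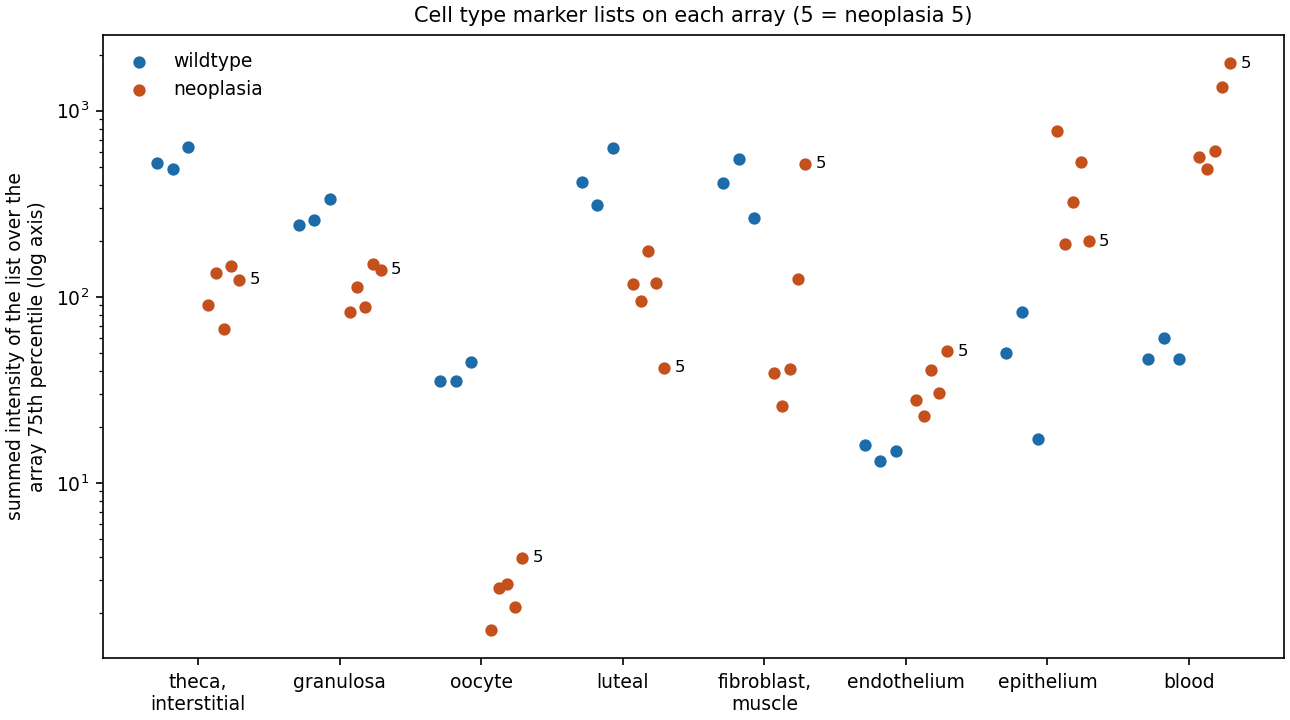
Summed level of each cell type marker list on each of the 8 arrays, in multiples of the array's 75th percentile on a log axis, with 1 point per array and neoplasia 5 numbered. Theca, granulosa, oocyte and luteal lists lie lower on all 5 neoplasia arrays than on the 3 wildtype arrays, and the fibroblast and muscle list does so on neoplasia 1 to 4.

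Of 11 other tested genes of ligand release, co-reception and uptake, 2 were lower, 2 higher and 7 not called, with a median of -0.66. These shares are near those of all features, of which 13.4% were lower and 17.0% higher. Cdon, a co-receptor that works beside Gas1, read 1315, 1309 and 939 in wildtype and 237, 115, 169, 168 and 522 in neoplasia, with no overlap. Cdon fell by 2.01 ± 0.49 (SE) on the log2 scale with a limma adjusted p of 0.0194, while its relative Boc differed by -0.66 ± 0.41 (SE, limma adjusted p of 0.247). Without wildtype 1, 2 or 3 the limma adjusted p of Cdon was 0.0847, 0.078 and 0.056.

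Of the Dispatched proteins, which free lipid-bearing ligand from the cell that makes it, Disp1 fell by 0.59 ± 0.17 (SE) on the log2 scale with a limma adjusted p of 0.0326, and by 0.57 without wildtype 2, with a limma adjusted p of 0.122. Its adjusted p was 0.103, 0.102 and 0.0543 in the limma fit without wildtype 1, wildtype 3 or neoplasia 3. Disp2 was not well above background on any wildtype array and read 2407, 103, 506, 554 and 117 in neoplasia 1 to 5. Its mean was at least 38.7-fold higher in neoplasia, with a limma adjusted p of 0.00474. It passed the filter on dim signals through the neoplasia arrays alone, so it had to differ. Lrp2, a large endocytic receptor that takes up Hedgehog ligand in some tissues, read 69.7, 96 and 28.3 in wildtype and 449.5, 850.0, 4915, 1986 and 965 in neoplasia. Lrp2 rose by 4.97 ± 0.74 (SE) on the log2 scale with a limma adjusted p of 0.00279, and the groups did not overlap.

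Of 19 tested genes between Smo and the Gli factors, 3 were lower, 2 higher and 14 not called, with a median of 0.05. These shares are near those of all features, of which 13.4% were lower and 17.0% higher. Sufu, the main inhibitor of the Gli factors, differed by -0.09 ± 0.32 (SE, limma adjusted p of 0.855). Kif7, a kinesin of the cilium tip that holds Gli proteins, read 175, 150.3 and 175 in wildtype and 22.0, 34.3, 29.5, 38.3 and 61.5 in neoplasia. It fell by 1.77 ± 0.31 (SE) on the log2 scale with a limma adjusted p of 0.00546. Iqce and Evc2, which belong to a complex at the base of the cilium that Smo acts through, fell by 0.74 ± 0.19 and 0.68 ± 0.21 (SE) with limma adjusted p of 0.0212 and 0.0389. The β-arrestin genes Arrb2 and Arrb1 rose by 1.49 ± 0.24 and 0.75 ± 0.24 (SE) with limma adjusted p of 0.00382 and 0.043. With spike-in scaling these values were 0.89 and 0.15, and neither was called.

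Smo and Gli proteins travel through the primary cilium. Of 18 tested genes of cilium transport 4 were lower, 0 higher and 14 not called, with a median of -0.33. Among all features 13.4% were lower and 17.0% higher. Ift88, a subunit of the particle that carries cargo to the cilium tip, read 2806, 2929 and 1730.0 in wildtype and 701, 747, 416, 452 and 677 in neoplasia. It fell by 1.58 ± 0.28 (SE) on the log2 scale with a limma adjusted p of 0.00556. Dync2h1, the motor of the return transport, fell by 1.91 ± 0.33 (SE) with a limma adjusted p of 0.00512. Rpgrip1l, of the transition zone, and Ift172 fell by 1.63 ± 0.31 and 0.89 ± 0.22 (SE), with limma adjusted p of 0.00773 and 0.0219. The kinesin subunit genes Kif3a and Kif3b differed by -0.27 and 0.58 and were not called.

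Genes known as Hedgehog targets in other tissues did not share a direction: of 16 tested, 4 were lower, 4 higher and 8 not called. The shares over all features were 13.4% lower and 17.0% higher. Mycn, a proliferation gene that Gli factors induce in the cerebellum, read 619, 506 and 830.5 in wildtype and 42.9, 44.6, 100.1, 117 and 144 in neoplasia. It fell by 2.52 ± 0.48 (SE) on the log2 scale with a limma adjusted p of 0.00788. Nr2f2, a mediator of Ihh in uterine stroma and also a theca marker, read 3665 to 4573 in wildtype and 1492 to 2056 in neoplasia, a fall of 0.72 ± 0.22 (SE) with a limma adjusted p of 0.0405. Its paralog Nr2f1 and Osr1, a factor of mesenchyme, fell by 2.20 ± 0.54 and 3.72 ± 0.91 (SE) with limma adjusted p of 0.0201 and 0.0197, and Osr1 was well above background on 1 of the 5 neoplasia arrays.

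The targets that rose were Ccnd1, Igf2, Spp1 and Ccne1. The cyclin D1 gene Ccnd1 read 1707, 2278 and 1083 in wildtype and 94871, 61987, 102126, 97042 and 19766 in neoplasia. It rose by 5.81 ± 0.58 (SE) on the log2 scale with a limma adjusted p of 0.00042, and neoplasia 5 was the lowest of the 5. The growth factor gene Igf2 was not well above background in wildtype and read 18314, 2599, 153, 80.4 and 121 in neoplasia, at least 58.9-fold higher by its mean, with a limma adjusted p of 0.0252. Like Disp2, Igf2 passed the filter through the neoplasia arrays alone and had to differ. The osteopontin gene Spp1 and the cyclin E1 gene Ccne1 rose by 4.76 ± 0.99 and 1.91 ± 0.57 (SE), with limma adjusted p of 0.0108 and 0.036. Bmp2 and Bmp4 differed by -1.57 and -2.75 and were not called, with limma adjusted p of 0.0815 and 0.073.

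Several of these calls of other pathway genes ended when 1 array was left out, while the direction of each of these genes stayed the same. Over all features, 1979, 2382 and 3116 were called without wildtype 1, 2 and 3, against 7671 with all arrays. Leaving out wildtype 1 gave limma adjusted p of 0.104 for Iqce, 0.131 for Evc2, 0.125 for Arrb1, 0.0978 for Ift172, 0.0953 for Nr2f1, 0.157 for Nr2f2, 0.083 for Osr1, 0.0784 for Igf2, 0.128 for Ccne1 and 0.0578 for Spp1. Leaving out wildtype 2 gave 0.0954 for Iqce, 0.0947 for Evc2, 0.112 for Arrb1, 0.101 for Ift172, 0.0889 for Nr2f1, 0.107 for Nr2f2, 0.0841 for Osr1 and for Igf2, and 0.121 for Ccne1. Leaving out wildtype 3 gave 0.129 for Evc2, 0.138 for Arrb1, 0.103 for Nr2f2, 0.0503 for Osr1, 0.0878 for Igf2 and 0.0736 for Ccne1. Among fits without 1 neoplasia, Arrb1 lost its call without neoplasia 2, 3, 4 or 5 (limma adjusted p of 0.0606, 0.0722, 0.074 and 0.0506) and Evc2 without neoplasia 1, 3 or 4 (0.061, 0.0589 and 0.0631). Nr2f2 lost its call without neoplasia 1, 2 or 3 (0.054, 0.0502 and 0.0566), and Ccne1 without neoplasia 4 (0.0669). Kif7, Ift88, Dync2h1, Rpgrip1l, Mycn, Lrp2, Arrb2 and Ccnd1 kept their calls in each fit that left out 1 array. With slide row as a block, Ccnd1 and Spp1 were called among the genes named as changed in the 4 pathway lists and the others were not. The mean over the probes of Evc2 differed by -0.23, with a limma adjusted p of 0.406.

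**Figure D5:**
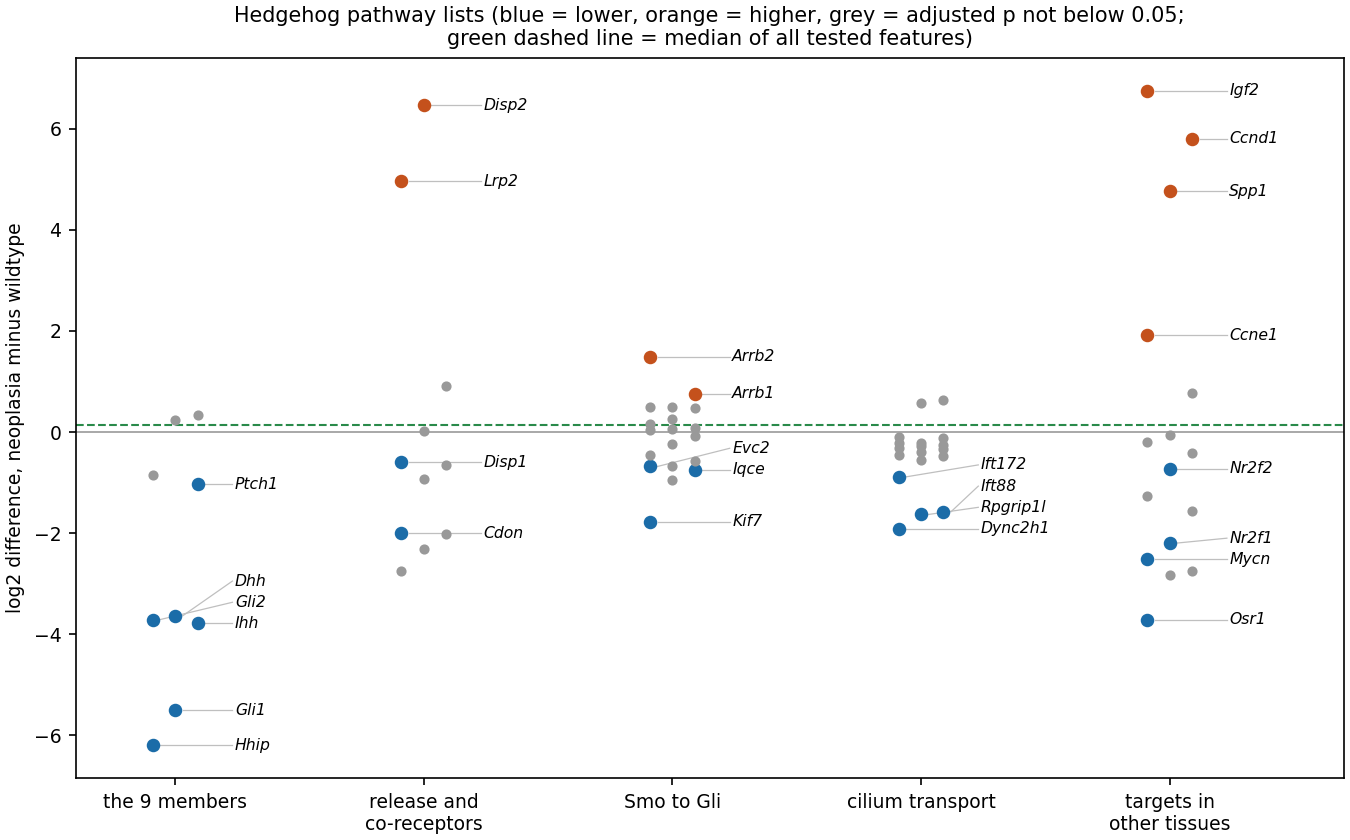
Log2 difference, neoplasia minus wildtype, for the 9 Hedgehog genes and the tested genes of the 4 pathway lists, with 1 point per gene, called genes coloured and named, and a dashed line at the median of all features, 0.14. The 9 Hedgehog genes have a median of -3.64, and the lists of release, transduction, cilium and target genes have medians of -0.66, 0.05, -0.33 and -0.57.

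Over the 8 arrays, the genes whose centred profile was nearest to that of Gli1 among 15458 symbols were Tenm4, Rimkla, Adgrv1, Obox1 and Epb41l4b. Their root-mean-square differences from Gli1 were 0.34, 0.36, 0.39, 0.39 and 0.42 log2 units. Rimkla, Adgrv1 and Obox1 were each well above background on 1 of the 5 neoplasia arrays, Gli1 on 3, and Tenm4 and Epb41l4b on all 5. The likeness thus rests in part on readings near background. For Ptch1 the nearest were Fam185a, Slc25a23, Vars2, Zfp113 and Ikzf4, at 0.14, 0.19, 0.20, 0.21 and 0.21. Both lists are descriptions over 8 arrays that fall into 2 groups.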

How the data were processed

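Arrays of 3 wildtype and 5 neoplasia ovaries were compared. Per the file headers, the authors extracted linear spot intensity with Agilent Feature Extraction 11.0.1.1, which subtracted background and detrended it, on an mm9 grid. These deposited intensities were not normalized between arrays. The authors' deposited value table holds log2 values. Each of its 37932 rows agreed within 0.001 with the log2 mean of the processed spots of 1 accession, so it was neither scaled between arrays nor centred, and its column medians ran from 4.80 to 6.07. Its Gas1, Smo and Hhip values therefore average all probes of 1 accession. Partek is named, with no role, per the submitters' processing notes.

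From the processed intensities, log2 values minus each array's 75th percentile were computed, without control and flagged spots, and the spots of a probe were averaged. A probe was tested if well above background on at least 3 arrays, and the probe with the highest mean stood for a gene. Saturated probes numbered 0. Accessions without version were named through the RefSeq table of GRCm38.p6, for 26582 of 55681 probes (47.7%). The comparison used lmFit and eBayes of limma 3.58.1 (R 4.3.3) without covariates, which leaves 6 residual degrees of freedom. Tests were two-sided, and p-values were adjusted over all 25216 features by Benjamini-Hochberg, with a threshold of 0.05. The script was tested on simulated data. The titles number the replicates, whereas another label field calls every sample replicate 1, and the titles were followed. Nothing in the labels says that the arrays are separate animals, so the p-values reflect only how these samples vary, which may be technical. The number of arrays limits the precision. Spike-in controls, with 6 of 10 probes above background on all arrays, had a mean log2 intensity of 9.17 ± 0.05 (SD, n = 3) and 9.30 ± 0.73 (SD, n = 5).

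The 9 genes and all lists were chosen with earlier results of these data known. A listed gene is not reported here and was left out of the list counts. Named are the 9 genes with each probe, up to 5 called genes of a list by size, list genes that an absence of a call needs, and the 5 symbols nearest to Gli1 and Ptch1. Alternatives were normexp (offset of 50), quantile normalization, spike-in scaling, no filter, a filter on all 8 arrays, the mean over probes, eBayes with trend and robust, a block for the replicate number or for the slide row, row 2 by itself, the authors' values, a threshold of 0.01 and leaving out each array. Raising dim signals to the lowest one above background, and leaving out wildtype arrays with the features of the full fit, were added after the data were seen.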

Additional observations from a re-analysis of the deposited data

Results flagged for a closer look

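In 4 of the 12 tested probes of the Hedgehog genes, 1 neoplasia array stood apart from the other 4 by Dixon's criterion for 5 samples (a gap of more than 0.71 of the range). For normally spread values chance gives about 1 in 20. For Gli2 and Hhip the other 4 neoplasia readings were at background and close together, so this rate does not hold for them. The 3 probes of Gas1 share their samples and are not independent. Gli2 on neoplasia 5 was at -2.34 on the scaled log2 level, while the other neoplasias were not well above background. Hhip probe A_55_P1969276 on neoplasia 5 was at -4.28, itself not well above background. Gas1 on neoplasia 1 was at 0.69 on probe A_55_P2025562 and at 0.39 on probe A_55_P2070510, above all 7 other arrays on both.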

How the results depend on the processing

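The directions of Ihh, Dhh, Ptch1, Smo, Gli1, Gli2 and Hhip were the same under every alternative that gave a value for them. Among these, Hhip passed the filter through the wildtype arrays alone and had to differ. Gli3 reversed to -0.37 with spike-in scaling, -0.20 with the replicate block, -0.13 without neoplasia 1 and -0.24 with the authors' values (-0.13 to 0.78 with 1 array left out), and Gas1 to -0.28 with spike-in scaling, -0.44 without neoplasia 1 and -0.037 with the authors' values (-0.44 to 0.65 with 1 array left out); the cause was not tested. Of the 9 genes, 6 were called lower, against 3 with a filter on all 8 arrays (which leaves Gli1, Gli2 and Hhip untested), 3 with slide row as a block, 3 at a threshold of 0.01 and 2 to 6 when 1 array was left out. It was 2 without any 1 of the wildtype arrays, where Hhip could not be tested, and 3, 4 and 3 without wildtype 1, 2 and 3 when the features of the full fit were kept. In slide row 2 alone 1 gene, Gli3, was called higher, in a fit with no spread between neoplasias. The authors' values called 7 lower, with Smo at -1.25 and a limma adjusted p of 0.0246. Same-numbered arrays did not deviate together (correlations of -0.05, -0.03 and -0.0015), and no wildtype array correlated best with its own number. The replicate block called 5 of the 9 lower, without Ptch1 (-0.86, limma adjusted p of 0.136), and 4704 features in all against 7671. Over all features, 4939 were called with spike-in scaling, 1537 with slide row as a block, 2566 at 0.01, and 1979, 2382 and 3116 without wildtype 1, 2 and 3. The share of calls that were higher was 56%, against 66.9% with normexp, 15.2% with spike-ins, 19.9% with the authors' values, 68.3% with the filter on all 8 arrays and 43.4% with the replicate block. Probes well above background numbered 29332 to 32920 on the neoplasia arrays and 33737 to 34147 on the wildtype arrays. Signal over background limits Gli1, Gli2 and Hhip in neoplasia. Under normexp their differences were -3.79, -0.78 and -2.51, and those of Ihh and Ptch1 shrank to -2.96 and -0.60.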
